A study of Mus musculus with 10 samples.

Results

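The MHC class I presentation and immunoproteasome genes described here were 10 of the 25239 gene symbols in the deposited count table, taken by symbol: H2-K1, H2-D1, B2m, Tap1, Tap2, Tapbp, Psmb8, Psmb9, Psmb10 and Nlrc5. All 10 had a row. They were measured by RNA-seq in 10 libraries of mouse Leydig cells, the testosterone-producing cells of the testis interstitium. The study's title concerns ketogenesis in Leydig cells and testicular ageing. The 4 groups were MLTC-1 cells given Hymeglusin, an inhibitor of HMG-CoA synthase (n = 3), MLTC-1 cells given the solvent DMSO (n = 3), untreated primary Leydig cells of mice aged 24 months (n = 2) and untreated primary Leydig cells of mice aged 2 months (n = 2). MLTC-1 is a mouse Leydig tumour line, so the 6 treated libraries come from 1 line. The labels give no dose, duration, strain or purification method, and do not say whether libraries of a group came from separate cultures or animals. The p-values therefore measure the spread between these libraries, which may be technical.

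MHC class I molecules carry peptides from inside the cell to its surface, where CD8+ T cells read them. A heavy chain, H2-K1 or H2-D1 among the classical ones, pairs with the light chain encoded by B2m. The proteasome makes the peptides, and its catalytic subunits Psmb5, Psmb6 and Psmb7 can be exchanged for the inducible Psmb8, Psmb9 and Psmb10, which form the immunoproteasome. Tap1 and Tap2 form the transporter that moves peptides into the endoplasmic reticulum, Tapbp encodes tapasin, which joins the transporter to the waiting heavy chain, and Nlrc5 encodes a transactivator of class I promoters. Most of these genes respond to interferons, in part through IRF1.

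Of the 10 genes, 7 lie in the major histocompatibility complex on chromosome 17 (GRCm38, the assembly called mm10, GENCODE M21). Psmb9 (chr17:34181987-34187764, minus strand), Tap1 (chr17:34187553-34197225, plus strand), Psmb8 (chr17:34197721-34201454, plus strand) and Tap2 (chr17:34203527-34216321, plus strand) lie side by side. Tapbp (chr17:33915899-33929292) and H2-K1 (chr17:33996017-34000347) lie on one side of this block, and H2-D1 (chr17:35262730-35267499) lies on the other. B2m is on chromosome 2 (chr2:122147686-122153083), and Psmb10 (chr8:105935735-105938444) and Nlrc5 (chr8:94434356-94527272) are on chromosome 8. Reads cannot always be given to one of these genes. Of the 50-base stretches of the transcript, 8.79% in H2-K1 and 14.3% in H2-D1 also occur in another gene, most often another class I heavy chain or pseudogene. Tap1 and Psmb9 share 212 exonic bases on opposite strands, and exons of Psmb8, Tap2 and Tapbp overlap antisense transcripts (Gm20496, Gm15821 and Gm19412). The strand setting of the counting is not given in the sources used here, so reads in such overlaps are uncertain.

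The promoters of the heavy chains, of B2m and of the pair Tap1 and Psmb9 are shown because these genes moved together in some comparisons and apart in others. Of the 10 genes, 8 had a promoter window in the RefSeq table (GRCm38.p6, 250 bases before to 50 bases after the start); Tap2 and Nlrc5 were not matched. Each window is printed 5′ to 3′ on the gene's own strand. Capitals mark CCAAT boxes (CCAAT), the core of the cAMP response element (TGACG), the IRF-type element GAANNGAAA and the NF-kB consensus, on either strand. The windows are H2-K1 at chr17:34000298-34000597 (minus strand), H2-D1 at chr17:35262844-35263143 (plus strand), B2m at chr2:122147437-122147736 (plus strand) and Tap1 at chr17:34187306-34187605 (plus strand). For H2-K1 the first listed of 2 windows in the table was used, and the RefSeq gene reaches further upstream, to 34000619.
H2-K1: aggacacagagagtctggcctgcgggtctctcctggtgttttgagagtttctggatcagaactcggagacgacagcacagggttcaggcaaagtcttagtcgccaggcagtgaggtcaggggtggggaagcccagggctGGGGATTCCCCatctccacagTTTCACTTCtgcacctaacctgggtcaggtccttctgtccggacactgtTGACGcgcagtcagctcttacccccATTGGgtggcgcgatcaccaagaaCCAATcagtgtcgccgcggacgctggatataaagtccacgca
H2-D1: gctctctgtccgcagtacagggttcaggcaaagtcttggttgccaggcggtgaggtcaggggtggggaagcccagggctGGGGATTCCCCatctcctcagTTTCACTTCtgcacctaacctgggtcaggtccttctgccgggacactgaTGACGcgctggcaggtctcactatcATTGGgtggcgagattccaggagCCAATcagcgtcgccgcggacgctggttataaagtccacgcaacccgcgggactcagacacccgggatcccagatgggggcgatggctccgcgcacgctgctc
B2m: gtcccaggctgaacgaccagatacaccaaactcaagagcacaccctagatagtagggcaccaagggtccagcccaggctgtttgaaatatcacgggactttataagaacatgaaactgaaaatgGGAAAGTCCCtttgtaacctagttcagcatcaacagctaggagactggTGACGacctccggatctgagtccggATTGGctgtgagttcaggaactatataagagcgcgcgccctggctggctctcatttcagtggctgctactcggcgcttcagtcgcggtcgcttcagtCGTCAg
Tap1: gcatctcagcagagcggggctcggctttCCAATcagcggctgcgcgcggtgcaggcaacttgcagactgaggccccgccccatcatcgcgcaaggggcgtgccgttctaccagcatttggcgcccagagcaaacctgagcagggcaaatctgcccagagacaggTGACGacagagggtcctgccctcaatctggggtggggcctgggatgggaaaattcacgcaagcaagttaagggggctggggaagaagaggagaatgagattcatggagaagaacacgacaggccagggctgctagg

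The H2-K1 and H2-D1 windows matched at 206 of 228 aligned bases (90.4%), and both hold the NF-kB consensus, the IRF-type element, a TGACG and CCAAT boxes in this order. The IRF-type element spans bases -90 to -82 of H2-K1 and -150 to -142 of H2-D1, counted from the start used for each window. B2m has the NF-kB consensus, 2 TGACG cores and a CCAAT box, and no GAANNGAAA in this window. It does hold gaaactgaaa just before the NF-kB match, with a wider gap between GAA and GAAA, a form that was not searched. GAANNGAAA was present in 2 of the 8 windows, H2-K1 and H2-D1, against 7.56% of all 27025 mouse promoters of the same length. The NF-kB consensus was in 3 of 8 windows (8.18% of all promoters), CCAAT in 6 (37.9%) and TGACG in 5 (21%). The Tap1 and Psmb9 start sites lie 226 bases apart on opposite strands and their windows share 275 bases, so the printed Tap1 sequence also covers most of the Psmb9 window. The CCAAT and TGACG matches of these genes are the same sites, so the counts of windows above include them under both genes. A match of letters describes the window and does not show that a factor binds there.

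Depth was 17407456 to 34787330 counts per library. Replicates varied little in MLTC-1 cells (biological coefficient of variation 0.0509) and much more in the primary cells compared by age (0.307). All 9 Leydig markers had counts in each primary library. In MLTC-1 cells Hsd17b3, the testis enzyme that makes testosterone, had 2, 9 and 4 counts with Hymeglusin and 0, 0 and 1 with DMSO. Hsd3b6 was also low, at 24, 56 and 65 counts in DMSO cells. Other markers were abundant there, with 84860, 113962 and 86581 counts of Cyp11a1 and 37292, 53132 and 39803 of Nr5a1. Of the 9 markers 2 were called higher and 7 lower in DMSO cells than in 2-month cells. In the primary cells, spermatid markers summed to 10328 and 5131 CPM (counts scaled to a common library size) at 24 months, against 1487 and 1980 CPM at 2 months. Fold changes between the ages followed transcript length: in the shortest decile of genes 51.8% were called higher at 24 months and 1.43% lower, and in the longest decile 0.936% were called higher and 56.8% lower. Each age result is therefore also given with an offset for a smooth trend of counts on transcript length. Of the 8 spermatid markers 7 were called higher at 24 months without this offset and 0 with it. Their median log2 fold change was 2.01 without the offset and 0.45 with it.

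Levels are CPM scaled by the trimmed mean of M-values (TMM) over all 10 libraries, so their ratios can differ slightly from fold changes fitted within a comparison. The heavy chains and the light chain were all higher in primary cells than in the tumour line, where the heavy chains were scarce. H2-K1 had 6.47, 6.57 and 9.27 CPM in Hymeglusin cells, 7.97, 8.62 and 8.23 CPM in DMSO cells, 799 and 899.7 CPM in 24-month cells and 393 and 356 CPM in 2-month cells. H2-D1, the other classical heavy chain, had 1.89, 2.10 and 1.90 CPM in Hymeglusin cells and 1.27, 0.761 and 0.607 CPM in DMSO cells. In primary cells it had 266 and 127 CPM at 24 months, against 37.9 and 38.4 CPM at 2 months. The ranges of adjoining groups overlapped for H2-K1 between Hymeglusin and DMSO, and for H2-D1 in no pair of adjoining groups. B2m, the shared light chain, had 160, 166 and 179 CPM in Hymeglusin cells and 133, 122 and 119 CPM in DMSO cells. It had 1268 and 1284 CPM in 24-month cells, against 449 and 408 CPM in 2-month cells, so the 4 groups did not overlap.

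The transporter genes ran in the opposite direction across cell sources. Tap1 had 52.4, 52.9 and 50.6 CPM in Hymeglusin cells, 48.0, 45.0 and 45.9 CPM in DMSO cells, 21.1 and 30.4 CPM in 24-month cells and 20.8 and 13.8 CPM in 2-month cells. Tap2 had 139, 133 and 138 CPM in Hymeglusin cells, 112, 115 and 118 CPM in DMSO cells, 47.8 and 55.8 CPM in 24-month cells and 51.4 and 42.8 CPM in 2-month cells. Both were highest in Hymeglusin cells, and the ages overlapped for Tap2. Tapbp was more even, with 175, 171 and 179 CPM in Hymeglusin cells, 125, 130 and 123 CPM in DMSO cells, 312.5 and 162 CPM in 24-month cells and 123 and 115 CPM in 2-month cells. Its 24-month libraries spanned the Hymeglusin level, and its DMSO and 2-month ranges met.

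Of the immunoproteasome subunits, Psmb8 and Psmb10 stood highest in 24-month cells, and Psmb9 had overlapping levels in 24-month and Hymeglusin cells. Psmb8, the inducible counterpart of Psmb5, had 17.5, 14.6 and 16.5 CPM in Hymeglusin cells, 5.27, 5.97 and 4.78 CPM in DMSO cells, 94.0 and 43.5 CPM in 24-month cells and 13.1 and 11.5 CPM in 2-month cells. Its 4 groups did not overlap. Psmb9, the counterpart of Psmb6, had 42.9, 38.5 and 45.5 CPM in Hymeglusin cells, 32.6, 29.6 and 29.8 CPM in DMSO cells, 48.3 and 31.1 CPM in 24-month cells and 9.02 and 6.90 CPM in 2-month cells. It stood lowest in 2-month cells, while the 24-month range overlapped both MLTC-1 groups. Psmb10, the counterpart of Psmb7, had 28.0, 29.0 and 30.3 CPM in Hymeglusin cells, 26.5, 28.6 and 25.9 CPM in DMSO cells, 138 and 88.4 CPM in 24-month cells and 37.6 and 32.7 CPM in 2-month cells. Only the MLTC-1 groups overlapped for Psmb10. Nlrc5 was near the detection limit, at 19, 9 and 8 counts in Hymeglusin cells, 4, 0 and 3 counts in DMSO cells, 12 and 31 counts in 24-month cells and 16 and 45 counts in 2-month cells. The limit that a count of 0 allows, 3 counts, equals 0.0845 to 0.219 CPM in these libraries.

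**Figure D1:**
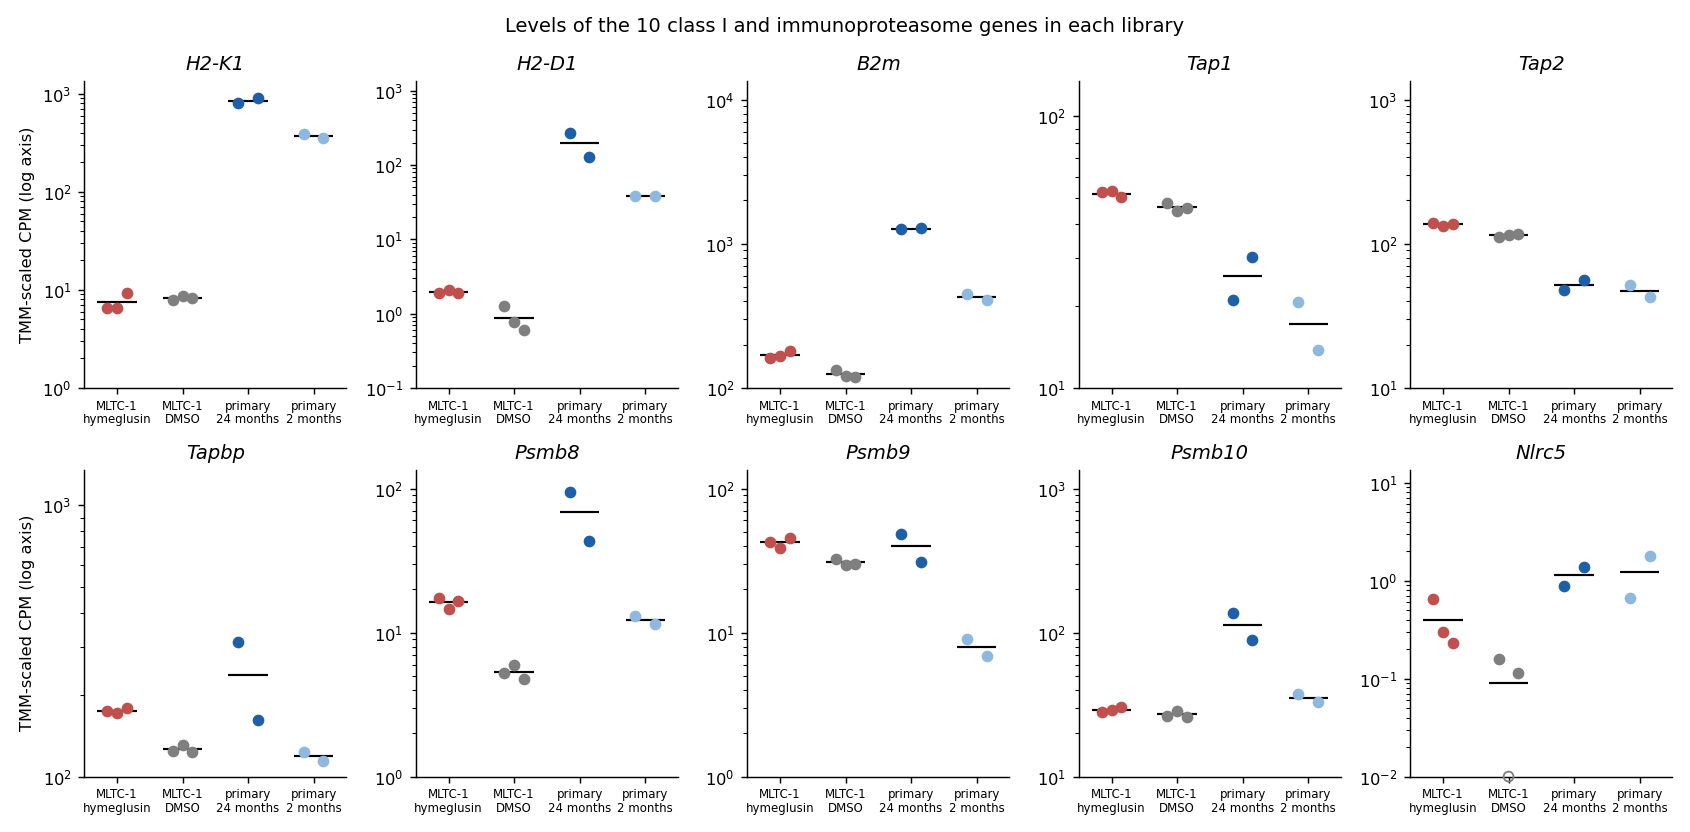
TMM-scaled CPM (log axis) of the 10 genes, one panel per gene with its own axis, in MLTC-1 cells given Hymeglusin or DMSO and in primary Leydig cells at 24 and 2 months; points are libraries, lines are group means, and the open circle for Nlrc5 is a library with 0 counts set on the axis. H2-K1 stands at 6.47 to 9.27 CPM in MLTC-1 cells and 356 to 899.7 CPM in primary cells, while Tap1 and Tap2 are higher in MLTC-1 cells.

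Per kilobase of transcript, B2m was the most abundant of the 10 genes in every group, at 196 ± 11.4 CPM per kilobase in Hymeglusin cells, 145 ± 8.79 in DMSO cells (SD, n = 3 each), 1484 ± 13.6 in 24-month cells and 498 ± 33.3 in 2-month cells (SD, n = 2 each). H2-K1 came next in primary cells, at 525 ± 44.1 CPM per kilobase at 24 months and 232 ± 16.3 at 2 months. In MLTC-1 cells H2-K1 reached only 4.59 ± 0.981 CPM per kilobase with Hymeglusin and 5.11 ± 0.203 with DMSO, below Tapbp, Tap2, Psmb9, Psmb10 and Tap1. With Hymeglusin it also stood below Psmb8 (9.95 CPM per kilobase), and with DMSO above it (3.28). Nlrc5 was lowest in all 4 groups, at 0.0120 to 0.161 CPM per kilobase as group means.

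With Hymeglusin, 6 of the 10 genes rose in MLTC-1 cells and none fell, so light chain, tapasin and parts of the immunoproteasome and transporter were higher while H2-K1, Tap1 and Psmb10 did not pass. The comparison asks what the inhibitor changes in the line; each comparison was fitted by edgeR's quasi-likelihood test on its own libraries, with Benjamini-Hochberg adjustment over all tested genes and a threshold of 0.05. Of 12873 tested genes 23.8% were called higher and 24.5% lower, and the median log2 fold change was 0.35 over the 9 tested genes of the set, against 0.01 over all tested genes. In all, 3069 genes were called higher and 3149 lower, and 4659 and 1996 when scaled to total counts. Psmb8 rose most, with 1.51 ± 0.11 on the log2 scale (fold change ± SE, adjusted p = 2.18e-13), and 1.21% of tested genes had a value at or above it. H2-D1 rose by 1.09 ± 0.28 (adjusted p = 0.00164) from low counts, 185 in the 3 Hymeglusin libraries together and 75 in the 3 DMSO libraries. The rises of Tapbp (0.39 ± 0.05, adjusted p = 2.15e-08), Psmb9 (0.38 ± 0.07, adjusted p = 2.37e-05) and B2m (0.35 ± 0.05, adjusted p = 8.28e-07) were similar in size. Tap2 rose by 0.17 ± 0.05 (adjusted p = 0.00512). The same 6 genes rose with the length offset, beside 24.7% of all genes called higher and 24.7% lower.

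H2-K1 had a log2 fold change of -0.23 ± 0.13 (adjusted p = 0.137), Tap1 of 0.09 ± 0.06 (adjusted p = 0.248) and Psmb10 of 0.02 ± 0.07 (adjusted p = 0.807). H2-K1 rests on the third Hymeglusin library, which held 9.27 CPM, and without it H2-K1 fell by 0.42 (adjusted p = 0.0132; 0.0132 to 0.646 over its 16 alternatives). Nlrc5 did not pass the count filter. Its 36 counts in Hymeglusin cells correspond to 0.382 CPM (95% exact Poisson interval 0.267 to 0.529), against 7 counts and 0.0804 CPM (0.0323 to 0.166) in DMSO cells; the intervals cover counting error only. Without a count filter its log2 fold change was 2.08 (adjusted p = 0.0315), and in a fit of all 10 libraries 2.16 (adjusted p = 0.201). That joint fit, which shares one spread with the primary cells, called 2 of the 10 genes, Psmb8 and B2m, beside 645 genes higher and 289 lower of all 17109. Tap1 passed when scaled to total counts (0.19, adjusted p = 0.0085; 0.0085 to 0.655 over its 17 alternatives), a scaling that moves the median of all genes to 0.11.

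**Figure D2:**
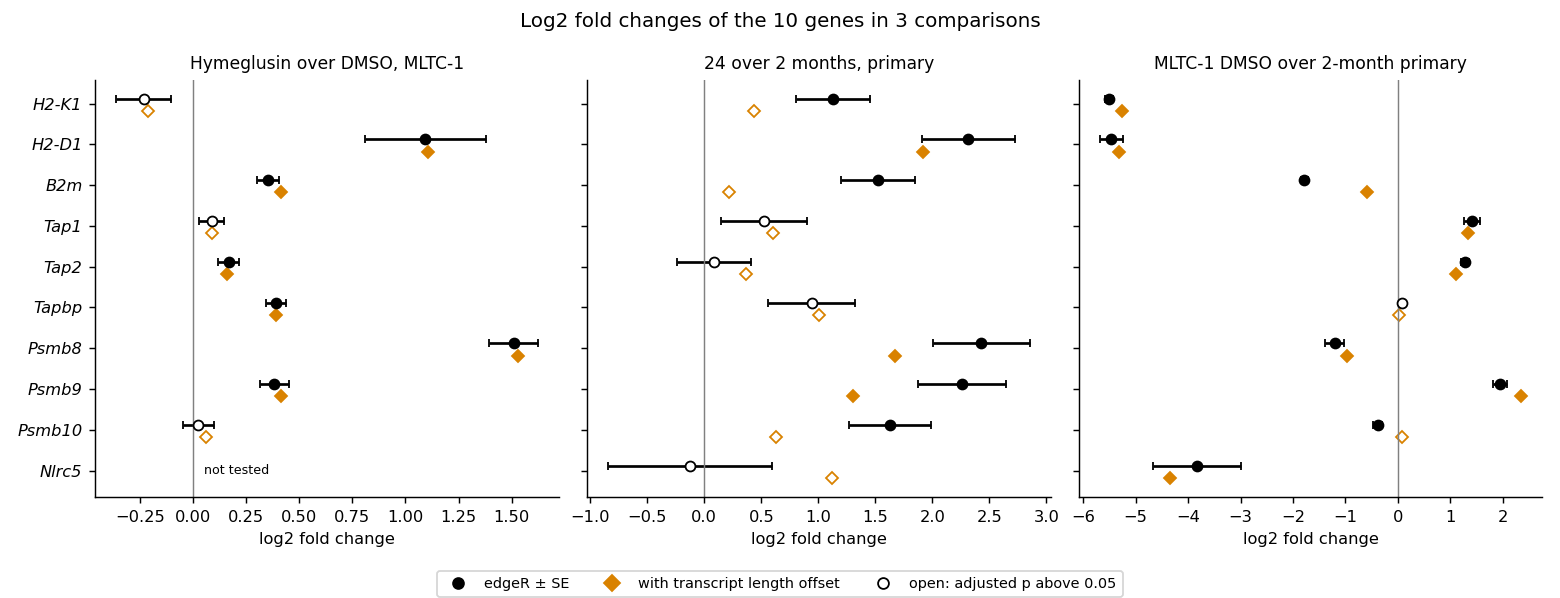
Log2 fold changes of the 10 genes for Hymeglusin over DMSO, 24 over 2 months and MLTC-1 DMSO over 2-month cells, each panel with its own axis; circles are edgeR values with SE bars, diamonds the values with a transcript length offset, and open symbols have an adjusted p above 0.05. The offset moves B2m from 1.52 to 0.22 in the age panel and leaves the Hymeglusin panel nearly as it was (B2m 0.35 and 0.42).

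Other genes of the pathway moved in both directions with Hymeglusin. Of 8 tested further class I heavy chains 3 rose and 1 fell: Fcgrt, the neonatal Fc receptor, rose by 0.34 ± 0.06, H2-T10 by 0.93 ± 0.36 and H2-T24 by 0.28 ± 0.11, and Mr1, which presents vitamin B metabolites, fell by 0.28. Of 10 loading and trimming partners 1 rose and 5 fell. Tapbpl, which encodes the tapasin-related editor TAPBPR, rose by 0.56 ± 0.14, whereas the aminopeptidase Npepps (-0.55 ± 0.05), the translocon subunit Sec61b (-0.48 ± 0.07) and the chaperone Calr (-0.43 ± 0.04) fell. The constitutive subunits Psmb5 (-0.20 ± 0.05) and Psmb7 (-0.20 ± 0.05) fell and Psmb6 had -0.09 ± 0.05 (adjusted p = 0.156). Of 8 activator and assembly genes none rose and 4 fell, among them Psme1 (-0.36 ± 0.05), Psme4 (-0.24 ± 0.05) and Psme3 (-0.18 ± 0.05).

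Of 17 tested transcription factors of class I promoters 8 rose and 2 fell with Hymeglusin. Irf1 rose by 0.61 ± 0.08 and the NF-kB subunit Rela by 0.34 ± 0.06, while Irf8 (-0.53 ± 0.05) and Stat2 (-0.16 ± 0.05) fell. Ciita, the class II counterpart of Nlrc5, averaged 0.385 CPM with Hymeglusin and 0.284 CPM with DMSO and was not tested. Of 15 tested interferon-stimulated genes 13 rose and none fell, and the median of the list was 1.28. Those with the smallest adjusted p were Ddx58 (1.58 ± 0.17), Irf7 (1.28 ± 0.17) and Ifi35 (0.50 ± 0.08). Of 9 tested interferons, receptors and regulators 2 rose, Socs1 by 1.03 ± 0.31 and Tyk2 by 0.28 ± 0.07. Ifng itself had 0, 2 and 5 counts with Hymeglusin and 5, 0 and 0 counts with DMSO, and was not tested. Of 2 tested class II genes H2-DMb1 rose by 0.31 ± 0.12. The 13 macrophage markers summed to 3.30, 3.81 and 2.96 CPM in Hymeglusin cells, against 1.07, 0.563 and 0.683 CPM in DMSO cells, most of it from Csf1r with 66 to 79 counts per Hymeglusin library and 2 to 10 per DMSO library. Of the markers that define the type, C1qc had 0 counts in all 6 libraries and Adgre1 had 1 count in a single Hymeglusin library. The part of these genes in the result was not tested.

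At 24 months, 6 of the 10 genes rose in primary Leydig cells and none fell: H2-K1, H2-D1, B2m, Psmb8, Psmb9 and Psmb10. The transporter genes, Tapbp and Nlrc5 did not pass. This comparison addresses age, with 2 libraries a group. Of 16381 tested genes 13.5% were called higher and 15.1% lower, and the median log2 fold change was 1.33 over the 10 genes, against -0.01 over all. In all, 2214 genes were called higher and 2471 lower, against 531 and 1301 when scaled to total counts and 2626 and 1781 with upper quartile scaling. With the length offset 3 of the 10 rose, H2-D1, Psmb8 and Psmb9, beside 5.81% of all genes called higher and 5.30% lower, and the medians were 0.82 for the set and -0.11 for all genes.

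On the log2 scale, H2-D1 rose by 2.32 ± 0.41 (fold change ± SE, adjusted p = 0.0092), and by 1.92 with the offset (adjusted p = 0.00491). Psmb8 rose by 2.43 ± 0.42 (adjusted p = 0.00888), and by 1.67 with the offset (adjusted p = 0.00911). Psmb9 rose by 2.26 ± 0.38 (adjusted p = 0.00802), and by 1.30 with the offset (adjusted p = 0.0255). For these 3 genes the 24-month libraries themselves differed, with 266 and 127 CPM for H2-D1 and 94.0 and 43.5 CPM for Psmb8, yet both stood above both 2-month libraries. The other 3 rises ended with the offset. H2-K1 rose by 1.13 ± 0.33 (adjusted p = 0.0315) and had 0.44 with the offset (adjusted p = 0.346; 0.000487 to 0.427 over its 15 alternatives). B2m rose by 1.52 ± 0.33 (adjusted p = 0.0137) and had 0.22 with the offset (adjusted p = 0.688; 2.06e-05 to 0.688 over its alternatives). Psmb10 rose by 1.63 ± 0.36 (adjusted p = 0.0142) and had 0.63 with the offset (adjusted p = 0.181; 2.6e-05 to 0.181 over its alternatives).

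Tapbp had a log2 fold change of 0.94 ± 0.38 (adjusted p = 0.089), Tap1 of 0.52 ± 0.38 (adjusted p = 0.309), Tap2 of 0.08 ± 0.32 (adjusted p = 0.861) and Nlrc5 of -0.13 ± 0.72 (adjusted p = 0.908), the last turning to 1.12 with the offset (adjusted p = 0.335; 0.312 to 0.993 over its 14 alternatives). Tapbp passed in 4 of its 15 alternatives (adjusted p 0.000156 to 0.489): with DESeq2, with the length and GC offset, in a fit of all 10 libraries, and without the second 24-month library, which held 162 CPM. That last fit gave 1.28 and has a single 24-month library, assumed to vary like the 2-month ones, and it called 4259 genes higher and 5628 lower of 16952. Tap1 ran from 0.18 to 0.89 over its 15 alternatives (adjusted p 0.0433 to 0.884) and passed in the fit of all 10 libraries. Without the first 2-month library 3 genes were called (H2-D1, Psmb8 and Psmb9) and without the second 2 were called (H2-D1 and Psmb8). Calls over all genes were fewer in these fits too, at 239 higher and 602 lower of 17056 without the first and 481 higher and 972 lower of 16987 without the second, and the lone 2-month library is assumed to vary like the 24-month ones. Against genes of like length, each of the 10 genes lay above the median of its length decile. The distance was smallest for B2m (0.14), in the shortest decile where the median was 1.39, and largest for H2-D1 (2.04). Psmb8 lay 1.86 above its decile, Nlrc5 1.34, Psmb9 1.33, Tapbp 1.17, Tap1 0.75, Psmb10 0.70, H2-K1 0.56 and Tap2 0.55.

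**Figure D3:**
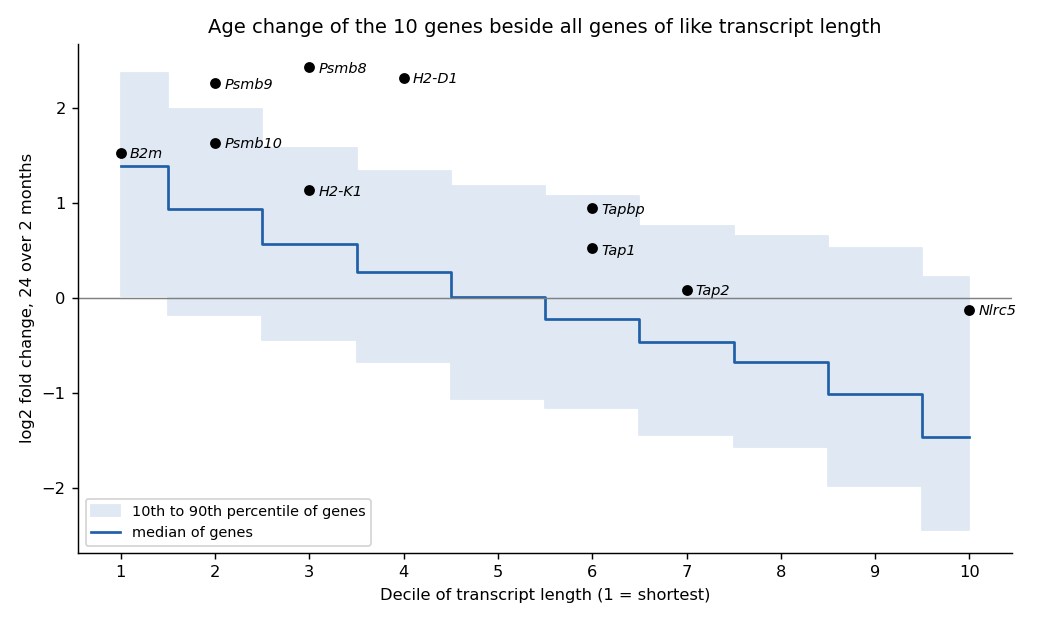
Log2 fold change of the 10 genes, 24 over 2 months, by decile of transcript length (1 = shortest); the line is the median of all tested genes of the decile and the band runs from the 10th to the 90th percentile. Psmb8, Psmb9 and H2-D1 stand above the band, B2m sits near the median of the shortest decile, and the median falls from 1.39 in decile 1 to -1.47 in decile 10.

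Markers of other cell types moved with the age comparison. The 13 macrophage markers summed to 208 and 156 CPM at 24 months, against 46.6 and 61.2 CPM at 2 months, and without Aif1, which gave most of this, the other 12 summed to 62.1 and 50.6 CPM, against 14.0 and 16.1 CPM. Of 11 tested macrophage markers 5 rose and none fell (2 and none with the offset). The markers that define the type differed in direction. C1qc had 76 and 106 counts at 24 months, against 26 and 20 counts at 2 months, and Adgre1 had 6 and 6 counts, against 14 and 24 counts. Ptprc of all leukocytes had 0.439 and 0.799 CPM at 24 months, against 0.165 and 0.316 CPM at 2 months. The 10 lymphocyte markers summed to 19.4 and 9.72 CPM at 24 months, against 6.42 and 4.73 CPM at 2 months, and the 7 neutrophil markers to 6.14 and 56.6 CPM, against 0.206 and 0.158 CPM. The 7 stromal markers summed to 129 and 208 CPM at 24 months, against 437 and 465 CPM at 2 months. Most of this came from Pdgfra (mean 49.0 CPM at 24 months, 215 CPM at 2 months) and Dcn (58.9 and 185 CPM). The list as a whole did not fall: of the 7 genes 2 rose and 2 fell (0 and 2 with the offset), with a median log2 fold change of 0.39. The 6 class II genes all rose (4 with the offset), Cd74 by 3.97 ± 0.48 (13.5 CPM at 24 months, 0.827 CPM at 2 months), H2-Aa by 3.74 ± 0.58 and H2-Eb1 by 3.07 ± 0.57. Class II molecules are carried mainly by immune cells. In bulk RNA a change in how many cells of a type were present and a change in RNA per cell cannot be told apart, and the part of these cells in the class I results was not tested.

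Among the other pathway genes at 24 months, 3 of 11 tested heavy chains rose and 1 fell (2 and 1 with the offset). H2-Q4 rose by 1.86 ± 0.36, the lipid-presenting Cd1d1 by 1.84 ± 0.37 and H2-T23, the Qa-1 heavy chain, by 1.29 ± 0.32, the last ending with the offset (0.46, adjusted p = 0.315), and H2-T24 fell by 2.25. No loading or trimming partner of 10 rose, and the peptidases Npepps (-1.19 ± 0.34) and Tpp2 (-1.26 ± 0.39) fell, neither of them with the offset. The constitutive subunits Psmb5 (1.65 ± 0.41), Psmb6 (1.5 ± 0.38) and Psmb7 (1.18 ± 0.33) rose alongside the inducible ones, and with the offset had 0.22, 0.02 and 0.07 and no longer passed. Of 8 activator and assembly genes 4 rose and 1 fell, with Psmf1 at 1.13 ± 0.33, Psme1 at 1.27 ± 0.39, Psme2 at 1.18 ± 0.36 and Psme4 at -1.79 ± 0.42. With the offset Psmf1, an inhibitor of proteasome activation, was the 1 gene of this list that passed (1.55, adjusted p = 0.00914; main adjusted p = 0.0341).

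Irf1, the interferon factor that acts on class I promoters, rose at 24 months by 3.79 ± 0.39 (3.46 with the offset), and averaged 774 CPM, against 54.5 CPM at 2 months. It was the 1 of 18 tested transcription factors that rose, and 4 fell (1 with the offset), among them Nfkb1 (-1.29 ± 0.36), Stat2 (-1.11 ± 0.32) and Ciita (-3.40 ± 1.01). Ciita rested on few counts, 5 in the 24-month libraries together and 68 in the 2-month libraries together. Of 25 interferon-stimulated genes 12 rose and 1 fell (7 and 1 with the offset), with Cxcl10 at 4.52 ± 0.47, Gbp2 at 2.95 ± 0.43, Isg15 at 2.37 ± 0.37 and Ddx58 at -1.95 ± 0.35. Of 11 tested interferons, receptors and their regulators 4 rose and 3 fell (3 and 1 with the offset): the feedback inhibitors Socs1 (4.28 ± 0.43) and Socs3 (1.99 ± 0.35) and the interferon lambda gene Ifnl3 (2.37 ± 0.54) rose, and Jak2 (-1.97 ± 0.41), Jak1 (-1.49 ± 0.34) and Ifnar1 (-1.02 ± 0.31) fell. Ifng had 0 counts in all 4 primary libraries.

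Set against the 2-month primary cells, DMSO-treated MLTC-1 cells had far less of both heavy chains and more of the transporter and Psmb9. Of the 10 genes 3 were higher and 6 lower; of all 16092 tested genes 34.4% were called higher and 48.5% lower. The median log2 fold change was -0.80 over the set and -0.27 over all genes, so values below are to be read against that shift. With the length offset 3 were higher and 5 lower, beside 34.9% of all genes higher and 48.4% lower. Cell source, culture and preparation cannot be told apart in this comparison. H2-K1 was lower at -5.50 ± 0.07 on the log2 scale (fold change ± SE, adjusted p = 1.62e-10) and H2-D1 at -5.46 ± 0.22 (adjusted p = 4.16e-08), with 17.5% and 17.6% of tested genes at or below these values. B2m was lower at -1.79 ± 0.07 (adjusted p = 3.04e-08), at -0.60 with the length offset and at -0.17 with the length and GC offset (adjusted p = 0.0147, the largest over its 16 alternatives). Nlrc5 was lower at -3.83 ± 0.84 (adjusted p = 0.00224), Psmb8 at -1.20 ± 0.18 (adjusted p = 0.000199) and Psmb10 at -0.39 ± 0.09 (adjusted p = 0.00375), the last turning to 0.07 with the offset (adjusted p = 0.51; 0.000329 to 0.51 over its 16 alternatives).

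Psmb9 was higher in MLTC-1 cells at 1.94 ± 0.14 (adjusted p = 1.33e-06), Tap1 at 1.42 ± 0.15 (adjusted p = 2.92e-05) and Tap2 at 1.28 ± 0.08 (adjusted p = 7.31e-07). Tapbp had 0.08 ± 0.06 (adjusted p = 0.243) and turned to -0.40 with a length and GC offset (adjusted p = 0.000163; 0.000163 to 0.744 over its 16 alternatives). Of 11 further heavy chains 2 were higher (H2-T24 at 1.57 ± 0.21, Cd1d1 at 0.74 ± 0.17) and 6 lower, with H2-Q4 at -5.99 ± 0.27, H2-T23 at -2.60 ± 0.09 and Fcgrt at -2.25 ± 0.07. Of the loading and trimming partners 3 were higher and 5 lower: Calr had 0.96 ± 0.06, Canx 0.50 ± 0.06 and Lap3 0.20 ± 0.06, against the trimming peptidase Erap1 at -2.62 ± 0.08, Tapbpl at -2.07 ± 0.18 and Pdia3 at -0.52 ± 0.07. Psmb7 was higher at 1.12 ± 0.06 and Psmb5 at 0.30 ± 0.07, and Psmb6 had -0.07 ± 0.07 (adjusted p = 0.371). With the length offset all 3 of these subunits were called higher, and their median was 1.41, against 0.30 without it. Of 8 activator and assembly genes Psme3 (0.82 ± 0.07) and Psmg1 (0.46 ± 0.10) were higher and Psmf1 (-0.85 ± 0.11) and Psme1 (-0.28 ± 0.06) lower. With the length offset 5 of this list were higher and 2 lower.

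Of 23 tested interferon-stimulated genes 1 was higher in MLTC-1 cells, Ifit2 at 1.68 ± 0.35, and 22 were lower, among them Ifitm3 at -7.93 ± 0.26, Gbp7 at -8.88 ± 0.31 and Bst2 at -2.23 ± 0.09. Of 10 interferons, receptors and regulators 1 was higher (Ifnar1 at 0.25 ± 0.09) and 8 lower, with Socs3 at -5.39 ± 0.17, Ifngr2 at -1.98 ± 0.11 and Jak2 at -1.64 ± 0.08. Of 5 class II genes 2 were higher, H2-DMb1 at 2.65 ± 0.34 and H2-DMa at 1.14 ± 0.30, and 3 were lower. Of 18 transcription factors 4 were higher and 7 lower, with Nfya at 1.13 ± 0.07, Stat2 at 0.69 ± 0.08 and Nfyc at 0.59 ± 0.07, against Irf2 at -2.14 ± 0.11, Irf1 at -1.74 ± 0.14 and Irf9 at -1.86 ± 0.15. Ciita was lower at -2.29 ± 0.50. The macrophage markers summed to 0.563 to 1.07 CPM in DMSO cells, against 46.6 and 61.2 CPM in 2-month cells, with Ptprc at 0 in all 3 DMSO libraries; their part in the result was not tested.

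Ratios within a library, taken per transcript length, compare subunits that replace each other. Dividing by a fixed length does not remove a trend of fold changes on transcript length, so the age ratios still carry it. Ratios of MLTC-1 DMSO against 2-month cells carry one too. There 16.3% of the shortest decile of genes were called higher and 65.9% lower, against 50.6% and 37.2% of the longest. Psmb8 over Psmb5 was 0.0928, 0.0831 and 0.0868 in Hymeglusin cells, against 0.0250, 0.0306 and 0.0243 in DMSO cells, a 3.30-fold difference. The same ratio was 0.131 and 0.130 in 24-month cells, against 0.0765 and 0.0751 in 2-month cells, or 1.72-fold. Psmb5 itself was called higher at 24 months without the length offset and did not pass with it. Psmb9 over Psmb6 averaged 0.202 ± 0.00434 with Hymeglusin and 0.146 ± 0.00749 with DMSO (SD, n = 3 each), and 0.0630 ± 0.00675 at 24 months and 0.0361 ± 0.00323 at 2 months (SD, n = 2 each). Psmb10 over Psmb7 averaged 0.0721 ± 0.00511 with Hymeglusin and 0.0616 ± 0.00297 with DMSO, and 0.238 ± 0.0241 at 24 months and 0.175 ± 0.0101 at 2 months. The ranges did not overlap in any of these pairs. In all 4 groups each inducible subunit stayed below its constitutive counterpart. MLTC-1 DMSO cells had 0.350-fold the Psmb8 and 0.352-fold the Psmb10 ratio of 2-month cells, but 4.05-fold the Psmb9 ratio.

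**Figure D4:**
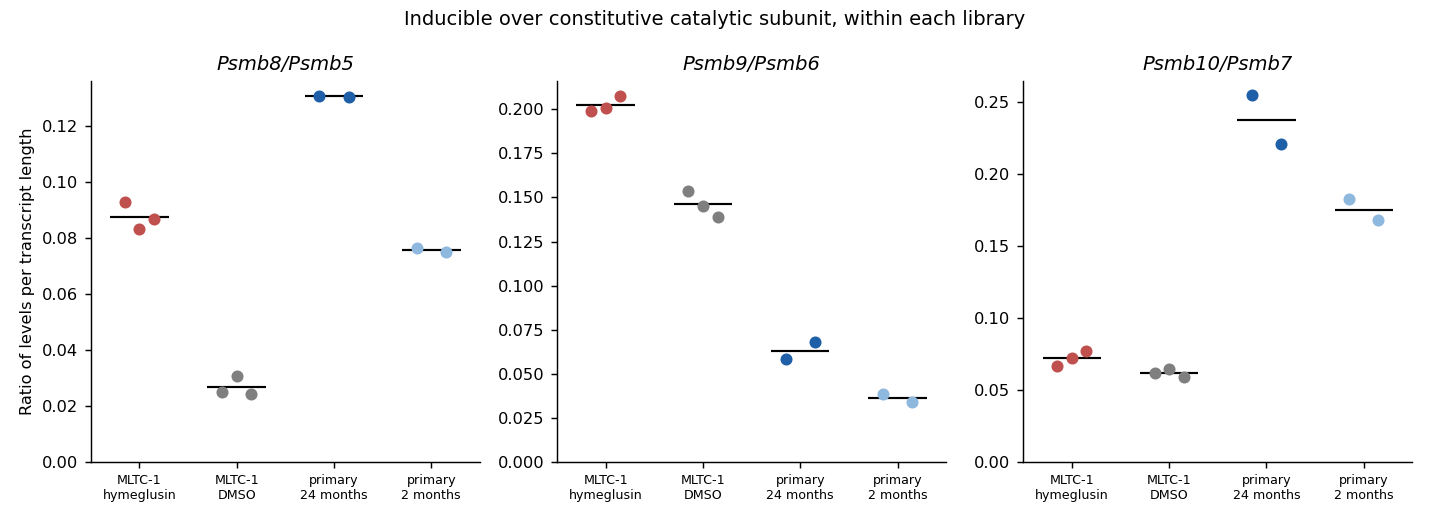
Ratio of each inducible catalytic subunit to its constitutive counterpart (levels per transcript length) in each library, with group means as lines. Psmb8 over Psmb5 is 0.0831 to 0.0928 in Hymeglusin cells and 0.0243 to 0.0306 in DMSO cells, and Psmb9 over Psmb6 is higher in both MLTC-1 groups than in primary cells.

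H2-K1 over B2m was 0.0233 ± 0.00358 with Hymeglusin and 0.0354 ± 0.00316 with DMSO (SD, n = 3 each), and 0.353 ± 0.0265 at 24 months and 0.464 ± 0.00163 at 2 months (SD, n = 2 each). MLTC-1 DMSO cells thus had a ratio 13.2-fold lower than 2-month cells, and for H2-D1 over B2m it was 13.3-fold lower. The size of both differences depends on the length trend, for which they carry no offset. Over its 16 alternatives B2m had log2 fold changes of -1.9 to -0.17 in that comparison. H2-K1 had -5.6 to -5.3 and H2-D1 -5.8 to -5.3. By age, H2-K1 over B2m carries no length offset. Without the offset H2-K1 rose less than B2m, and with it H2-K1 had the larger value. H2-K1 over H2-D1 averaged 4.94 ± 1.22 with Hymeglusin and 13.5 ± 4.84 with DMSO, and 6.53 ± 3.73 at 24 months and 12.8 ± 1.03 at 2 months, so the balance of the heavy chains stood at a lower mean in the Hymeglusin and 24-month groups. Psmb9 over its neighbour Tap1, with which it shares a promoter region, averaged 1.78 ± 0.186 with Hymeglusin and 1.45 ± 0.0333 with DMSO, and 3.62 ± 1.95 at 24 months and 1.02 ± 0.103 at 2 months. In exact two-sided permutation tests of the 9 ratios in 3 comparisons, the smallest p the design allows is 0.1 for Hymeglusin against DMSO, 0.333 for the ages and 0.2 for MLTC-1 DMSO against 2 months, and all 27 adjusted values were 0.338 or more.

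Across the 4 group means the 10 genes did not share one profile. By the root mean square difference of log2 levels centred on each gene's own mean, the closest pair was Tap1 and Tap2 (0.17), followed by Tapbp and Psmb10 (0.58), Psmb8 and Psmb10 (0.59) and H2-K1 and H2-D1 (0.60), while H2-K1 and Tap2 were farthest apart (3.73). The mean profile of the 9 genes that passed the count filter stood at -0.51 in Hymeglusin cells, -0.96 in DMSO cells, 1.45 in 24-month cells and 0.02 in 2-month cells. Of 10810 other genes, those nearest to it over these 4 means were Fam110a (0.03), Brms1 (0.06), Znhit3 (0.06), Rnaseh2c (0.08) and Ift22 (0.09), in root mean square log2 difference.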

How the data were processed

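RNA-seq counts per gene for 10 libraries were used as deposited. The submitters' processing notes name HISAT2 2.2.1 and the mm10 build, featureCounts 2.0.6 as the counter, and, for reads, FastQC 0.12.1 beside fastp 0.23.4. The whole numbers deposited by the authors are raw counts. Strand setting, counting options and annotation: not given in the sources used here. Per the labels' protocols, libraries were made from 1.3 µg of RNA with a NEBNext Ultra kit. The 10 genes and all other gene lists were chosen with earlier results of these data known.

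Each comparison was fitted on its own libraries with edgeR 4.0.16 in R 4.3.3 (genes kept by filterByExpr with a minimum count of 10, TMM scaling, robust quasi-likelihood test, Benjamini-Hochberg adjustment over all tested genes, threshold 0.05); the SE is the absolute log2 fold change divided by the root of F. The script was tested on simulated data. Alternatives used limma 3.58.1 (voom), DESeq2 1.42.0, other scalings and filters, a fit of all 10 libraries, each library left out, a replicate block, and offsets for a loess trend (span 0.3) on transcript length or length and GC content. Lengths are those of the longest principal GENCODE transcript and covered 97.8% of genes tested by age.

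All 10 genes are named in every comparison. Of each other list up to 3 genes per direction are named, by smallest adjusted p, with Psmb5, Psmb6, Psmb7, Irf1, Ciita and Ifng always (a further gene of this rule is not reported here); marker genes are named as sums or where they define a type. The 5 genes nearest in profile had a mean log2 CPM of at least 2 (pseudocount 0.5 CPM). Replicates of no group agreed within sampling noise (chi-square per degree of freedom 3.44 to 134).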

Additional observations from a re-analysis of the deposited data

How the results depend on the processing

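Of 459 recalculations for single genes of the set, 419 kept direction and side of the threshold, 19 lost the call, 7 gained it and 14 changed direction; the cause was not tested. With Hymeglusin, 2 genes were higher in the fit of all 10 libraries, and leaving out single libraries gave 6 higher and 0 to 1 lower (H2-K1, without the third Hymeglusin library); Psmb10 ranged from -0.0022 to 0.062. By age, 3 genes were higher with the length offset and 2 to 7 with single libraries left out. Age values that changed direction were small or imprecise: Nlrc5 had 0.040 (upper quartile scaling), 0.00926 (voom), 1.12 (length) and 1.07 (length and GC) and -0.66 to 0.67 with single libraries left out, and Tap2 had -0.11 (total counts) and -0.10 to 0.26. In MLTC-1 DMSO cells against 2 months, Tapbp had -0.062 with upper quartile scaling, -0.058 with the stricter filter and -0.40 with length and GC, and Psmb10 had 0.068 with length. Counts over all genes moved most by scaling to total counts (4659 higher and 1996 lower with Hymeglusin, against 3069 and 3149; 531 and 1301 by age, against 2214 and 2471), in the fit of all 10 libraries (645 and 289 with Hymeglusin, 4309 and 4559 by age), with the length offset (952 and 869 by age) and with single libraries left out (239 to 4259 higher and 602 to 5628 lower by age); the stricter filter gave 4980 lower genes in MLTC-1 DMSO cells, against 7797. The median of all genes by age was 0.17 with upper quartile scaling and -0.21 with total counts. Same-numbered libraries shared only a number (correlations of deviations -0.0764 to 0.0074), and the replicate block gave 6 higher with Hymeglusin, 6 higher by age, and 3 higher and 6 lower in MLTC-1 DMSO cells, with no call of the 10 genes changed. Depth limits Nlrc5 in all groups and H2-D1 in MLTC-1 cells.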
